A study of Mus musculus with 24 samples.

Results

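The axoneme structure and assembly genes are 42 of the 25239 genes in the deposited table of mouse tracheal epithelial cultures. They were chosen by symbol, for what their proteins are known to do: radial spokes, the central pair, the nexin-dynein regulatory complex, dynein arm docking and assembly, tektins and other proteins inside the microtubules, and a few further proteins of ciliated cells. All 42 symbols were found and all 42 passed the filter on low values.

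RNA was sequenced from 24 inserts, small porous culture supports, that carried primary tracheal epithelial cells. The donors were FVB/NJ mice, wild-type, between 7 and 8 weeks of age. The cells had been expanded under medium and then differentiated for 10 to 14 days at an air-liquid interface, where the upper side of the layer faces air and ciliated cells can form. There were 4 groups of 6 inserts: female cells in humidified air, female cells in cigarette smoke, male cells in humidified air and male cells in cigarette smoke. Exposure lasted 10 days, and 1 exposure to smoke used 2 cigarettes burned over about 8 minutes. All groups shared the strain, the genotype and the media. The labels name no donor animals, so inserts of a group may come from 1 preparation. P-values then measure only the spread between inserts, and a difference between the sexes includes any other difference between the preparations.

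A motile cilium is built on an axoneme, a ring of microtubule doublets around a central pair of single microtubules. Dynein arms on the doublets pull neighbouring doublets past each other, radial spokes and the central pair apparatus coordinate them, and the nexin-dynein regulatory complex links adjacent doublets and turns sliding into bending. In the trachea the beat of multiciliated cells moves mucus towards the throat, and inherited loss of many of these proteins causes primary ciliary dyskinesia.

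Values below are normalised read counts, the read count of a gene divided by 1 size factor per library. Fold changes are differences of log2(normalised count + 1) and understate the change of genes with few reads. Depth ran from 16038813 to 24485024 reads on genes in the 23 libraries whose whole reads could be recovered. The cultures held epithelial transcripts in every group, with Cdh1 between 15436 and 23134 and Epcam between 4919 and 17364 over the 24 inserts. Of 4 leukocyte markers, Ptprc and Cd3e never exceeded 8.31, Cd68 ran from 72.5 to 460.3 and Lyz2 from 4040 to 130518. Over all genes tested, levels in 2 libraries moved with transcript length: genes with transcripts of up to 2220 bases stood above those with more than 3883 bases by 1.81 in female air insert 1 and by 0.91 in female smoke insert 4, as median log2 differences from the other inserts of the group, against -0.17 to 0.16 in the other 22 libraries. The main results are given with and without this pair of inserts, called the length-biased pair below. Strandedness is not given in the sources used here. Reads of 7 members (Spag17, Iqcg, Ccdc39, Dnaaf1, Dnali1, Mns1 and Stk33) cannot be fully told apart from those of a gene that shares exon bases with them.

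In female cells axoneme genes fell together under smoke. Of the 42 members 41 fell and 0 rose by limma at an adjusted p under 0.05, where 19.3% of all 13549 genes tested fell. The median log2 fold change was -2.68, against -0.003 over all genes tested, from -3.39 for Spag16 to -0.50 for Gas8. In male cells 0 of the 42 were called by limma, where 12.2% of all genes fell, although all 42 estimates lay below 0, at a median of -1.10, from -2.51 for Spag16 to -0.02 for Gas8. Both counts come from 1 fit in which all 4 groups share 1 spread. The mean log2 level of the members had an SD of 2.41 in female smoke and 1.21 in male smoke. With each sex fitted alone, 13 members fell in female cells (11.3% of all genes) and 15 in male cells (24.1%). The counts of 41 and 0 therefore do not compare the sexes. In these bulk samples fewer ciliated cells and less RNA per ciliated cell cannot be told apart.

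The spread between smoke inserts was wide in both sexes, and only 2 members in female cells and 1 in male cells had smoke inserts that all lay below the air inserts of their sex. Among all genes tested 5.75% did so in female cells and 14.2% in male cells. Leaving out the length-biased pair, 38 members fell in female cells (23.8% of all genes), at a median of -1.55, and without female smoke insert 4 alone the median was -1.72. With the 12 female libraries fitted alone 13 members fell by limma (11.3% of all genes), and with inserts 1 to 3 of each group alone 1 did (2.01%).

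**Figure D1:**
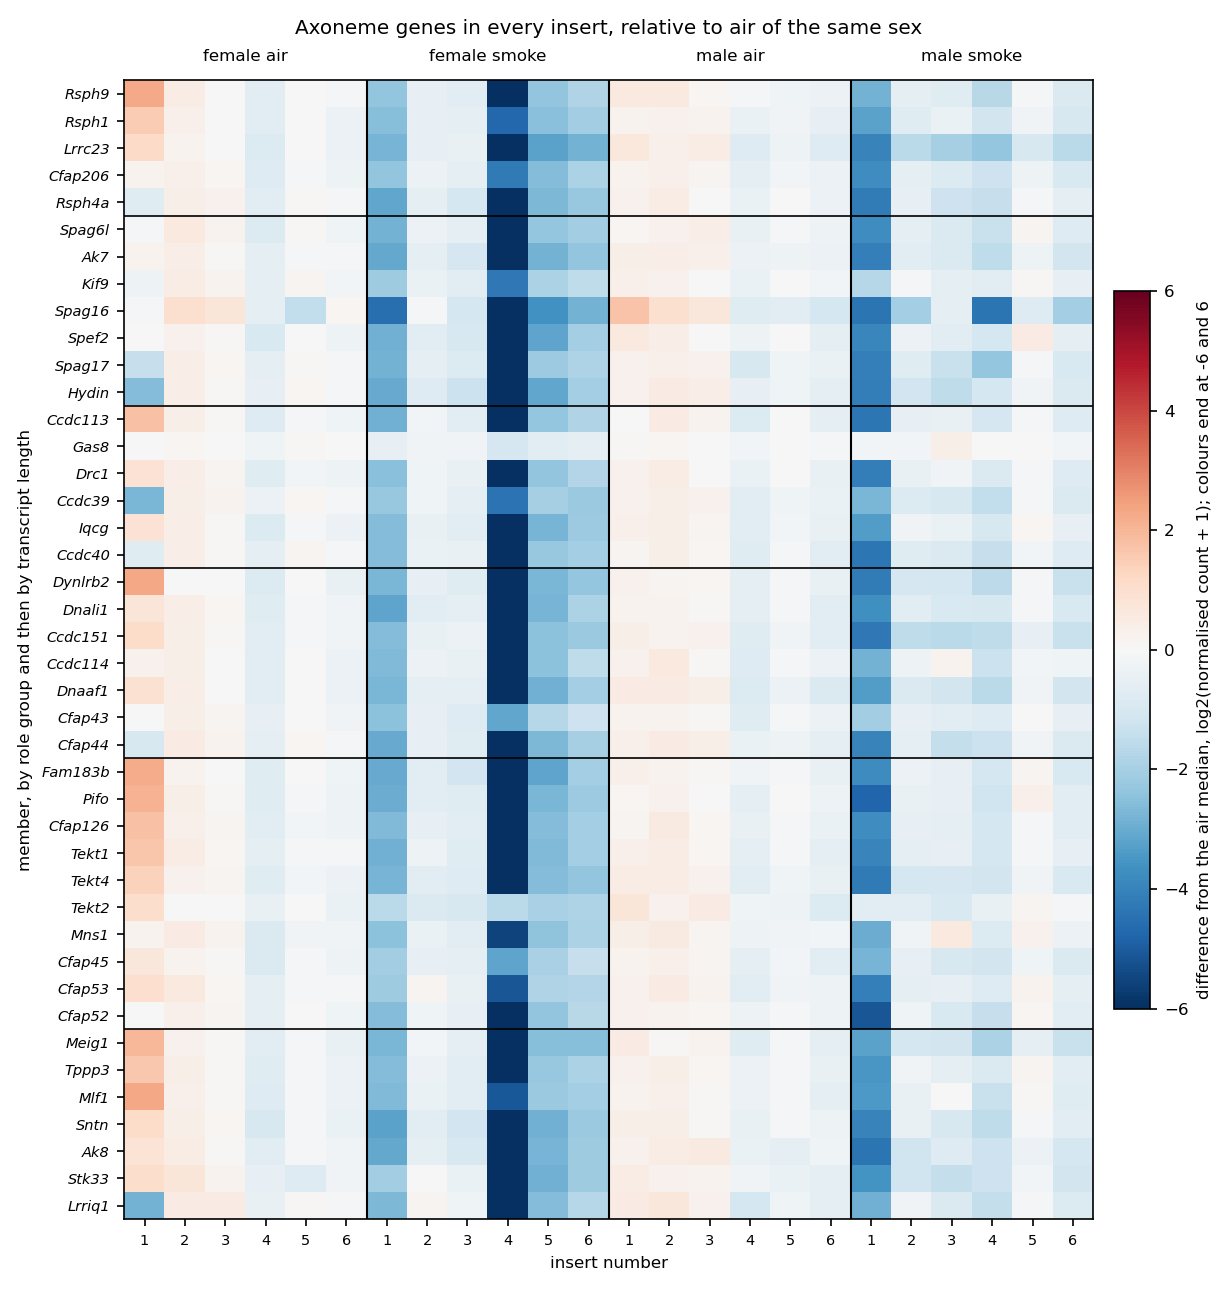
Each column is 1 insert and each line 1 of the 42 genes, grouped by role and ordered by transcript length within a group; colour is the difference of log2(normalised count + 1) from the median of the 6 air inserts of the same sex, with colours ending at -6 and 6. Female smoke insert 4 and male smoke insert 1 are the lowest columns, while Gas8 stays pale in nearly every column.

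Multiciliated cells switch on these genes through the transcription factors FOXJ1 and RFX, and RFX proteins bind the X-box, an imperfect inverted repeat. A RefSeq table (GRCm38.p6) held the sequence around the transcription start, 250 bases before to 50 after it, for 36 of the 42 members. The X-box half-site GTTGCC, searched on both strands, lay in the window of 21 of the 36 (58.33%), and in 14.14% of 27025 genes with such a window. A full X-box of the form GTNNCCNGGNNAC, GTNNCCNNGGNNAC or GTNNCCNNNGGNNAC lay in 14 (38.89%), against 4.0% of all genes. It can overlap the half-site. The forkhead letters TGTTTAC, on either strand, lay in 4 (11.11%), against 4.05%. A match describes letters and not a bound site, and members share their membership of the ciliary set, so these shares are a description. The following stretches are shown because they carry a full X-box (capitals) upstream of the start in members whose values by insert are given below. Kif9 and Cfap126 carry one too, not printed because it lies inside the gene as annotated on mm10. They are printed on the strand of the gene, at GRCm38.p6 positions chr6:124779859-124779911 (Lrrc23, minus strand), chr9:22002635-22002688 (Ccdc151, minus), chr19:47837401-47837453 (Cfap43, minus), chr11:58801961-58801996 (Fam183b, minus) and chr10:103236323-103236361 (Lrriq1, minus).
Lrrc23: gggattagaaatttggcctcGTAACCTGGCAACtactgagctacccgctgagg
Ccdc151: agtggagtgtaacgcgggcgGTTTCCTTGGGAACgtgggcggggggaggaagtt
Cfap43: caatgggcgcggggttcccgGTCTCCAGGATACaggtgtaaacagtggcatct
Fam183b: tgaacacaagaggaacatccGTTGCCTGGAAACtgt
Lrriq1: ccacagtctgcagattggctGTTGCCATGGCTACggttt
These motifs begin between 164 bases (Lrrc23) and 16 bases (Fam183b) before the start. Fam183b and Lrriq1 hold the half-site GTTGCC within the full motif, and Lrrc23 holds its reverse complement GGCAAC.

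All 5 radial spoke genes fell in female smoke, at a median of -2.70. Rsph1, a protein of the spoke head on mm10 chromosome 17 (31255020 to 31277296), ran from 958 through a median of 1548 to 4477 in female air and from 58.7 through 317 to 1106 in female smoke. The ranges overlapped, as smoke inserts 2 (1106) and 3 (1064) lay above the lowest air insert. Rsph1 fell by 2.28 ± 0.56 (SE, n = 6 per group, limma adjusted p = 0.0035). Male air inserts held 290 to 499 counts of Rsph1 with a median of 418, and male smoke inserts 43.3 to 353 with a median of 231, a difference of -1.03 ± 0.56 that did not pass (adjusted p = 0.197). Lrrc23, a protein of the third spoke with the X-box above, stood at 882, 1549 and 3420 (lowest, median, highest) in female air and at 1.20, 221 and 1140 in female smoke. It fell by 3.23 ± 0.96 in limma (adjusted p = 0.0122). In male cells Lrrc23 stood at 200.2, 355 and 540 in air and at 20.3, 99.7 and 176 in smoke. It is the 1 member whose male groups did not overlap, yet its difference of -2.01 ± 0.96 did not pass in the fit of all 24 libraries (adjusted p = 0.141). With the length-biased pair left out, which lowers the spread that all groups share, the male difference was the same and passed (adjusted p = 0.00294). The other 3 radial spoke genes, Rsph4a, Rsph9 and Cfap206, fell in female smoke, at -3.03, -2.70 and -1.91.

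The central pair apparatus changed by the largest median of the role groups in female smoke, -3.02, with 7 of 7 members lower. Spag16, the mouse form of a central apparatus protein needed for motility (chromosome 1, 69826970 to 70725132), ran from 132 through 371 to 718 in female air and from 0 reads through 39.6 to 344 in female smoke. Its groups overlapped, and it fell by 3.39 ± 1.0 in limma (adjusted p = 0.0115). Among male inserts Spag16 stood at 8.77, 21.9 and 67.3 in air and at 0 reads, 4.0 and 12.9 in smoke, so this gene had few reads in male cells in either condition. Its male difference of -2.51 ± 1.0 had the smallest adjusted p among the male smoke differences of the 42 members, 0.0753. Ak7, an adenylate kinase, ran from 1159 to 2265 with a median of 1746 in female air and from 2.40 to 1170 with a median of 288 in female smoke. It fell by 3.14 ± 0.91 (limma adjusted p = 0.0101). In male cells Ak7 had a median of 401 in air (306 to 526) and of 198 in smoke (22.1 to 321), a difference of -1.43 ± 0.91 (adjusted p = 0.277).

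Spef2, a protein of a central pair projection, ran from 335 through 633 to 748 in female air and from 0 reads through 120 to 391 in female smoke, and fell by 3.02 ± 0.96 (limma adjusted p = 0.0173). Its male values were 84.0, 122 and 186 in air and 7.07, 79.8 and 170.1 in smoke, a broad overlap with a difference of -1.03 ± 0.96 (adjusted p = 0.473). Kif9, the kinesin of the central pair, moved less. It stood at 413, 634 and 870 in female air and at 31.2, 194 and 472 in female smoke, and fell by 1.77 ± 0.43 (adjusted p = 0.0034). In male cells it stood at 195, 258 and 321 in air and at 79.5, 179 and 272 in smoke, with a difference of -0.56 ± 0.43 (adjusted p = 0.376). Hydin, a very long protein of a central pair projection, fell in female smoke at -3.03, Spag6l at -2.87 and Spag17 at -2.23.

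The nexin-dynein regulatory complex and the ruler proteins that space it held both typical members and the least changed one. All 6 fell in female smoke, at a median of -2.60. Ccdc40, which with Ccdc39 forms the ruler along the doublet (chromosome 11, 119228572 to 119265238), stood at 858, 1422 and 1897 in female air and at 2.40, 316 and 1082 in female smoke. It fell by 2.62 ± 0.93 (limma adjusted p = 0.0323). Male inserts held 362, 609 and 762 counts of Ccdc40 in air and 29.2, 344 and 537 in smoke, a difference of -1.24 ± 0.93 (adjusted p = 0.366). Gas8, a core subunit of the regulatory complex first described as a growth arrest gene (chromosome 8, 123518835 to 123536650), kept a narrow range in all groups. It stood at 496, 589 and 633 in female air and at 295, 403 and 510 in female smoke, and fell by 0.50 ± 0.12 (adjusted p = 0.00257). In male cells Gas8 stood at 475, 531 and 578 in air and at 468, 499.7 and 671 in smoke, a difference of -0.02 ± 0.12 (adjusted p = 0.905). Drc1, Iqcg, Ccdc113 and Ccdc39 fell in female smoke, at -2.84, -2.61, -2.58 and -1.55, and once the length-biased pair was left out Drc1 (adjusted p = 0.0633) and Ccdc113 (0.0657) did not pass.

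Genes for dynein arm subunits, docking, tethering and assembly all fell in female smoke, 7 of 7, at a median of -2.72. Cfap43, which tethers an inner dynein to the doublet, was 1 of the 2 members whose female groups did not overlap: it stood at 1090, 1542 and 1974 in air and at 177, 559 and 1086 in smoke. It fell by 1.60 ± 0.36 (limma adjusted p = 0.0018). Male inserts held 245, 412 and 484 counts of Cfap43 in air and 95.4, 275 and 409 in smoke, a difference of -0.64 ± 0.36 (adjusted p = 0.209). Ccdc151, a docking factor of the outer arm, stood at 284, 453 and 968 in female air and at 2.40, 89.7 and 351 in female smoke, and fell by 2.62 ± 0.77 (adjusted p = 0.0115). Its male values were 117, 195 and 244 in air and 8.83, 66.0 and 137 in smoke, a difference of -1.67 ± 0.77 (adjusted p = 0.127). The light chain Dynlrb2, the inner arm chain Dnali1, the tether partner Cfap44, the assembly factor Dnaaf1 and the docking factor Ccdc114 fell in female smoke, at -3.13, -3.05, -2.74, -2.72 and -2.57.

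Tektins and other proteins inside the doublet microtubules fell in female smoke in 10 of 10 cases, at a median of -2.73. Cfap126 stood at 901, 1457 and 4873 in female air and at 8.39, 296 and 1020 in female smoke, and fell by 2.80 ± 0.79 (limma adjusted p = 0.00891). Its male values were 289, 398 and 579 in air and 29.2, 262 and 378 in smoke, a difference of -1.06 ± 0.79 (adjusted p = 0.359). Fam183b, a short protein of the doublet wall, fell by 3.21 ± 0.84 (adjusted p = 0.00534) and was spread widely in female air. It ran there from 469 through 764 to 3548, the last in insert 1, and in female smoke from 2.40 through 141 to 484. Male inserts held 145, 194 and 239 counts of Fam183b in air and 13.3, 120 and 219 in smoke, a difference of -1.04 ± 0.84 (adjusted p = 0.4).

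Tekt2, a filament protein of the doublet (chromosome 4, 126322121 to 126325688), was the other member whose female groups did not overlap. It stood at 83.9, 117 and 240 in air and at 29.7, 37.4 and 63.6 in smoke, and fell by 1.52 ± 0.29 (limma adjusted p = 0.000478, the smallest of the 42). In male cells Tekt2 was low throughout, at 19, 34.5 and 55.9 in air and at 17.5, 22.8 and 37.6 in smoke, with a difference of -0.45 ± 0.29 (adjusted p = 0.275). Cfap45 stood at 440, 815 and 1318 in female air and at 91.1, 265 and 581 in female smoke, and fell by 1.55 ± 0.41 (adjusted p = 0.00551). Its male values were 150, 242 and 295 in air and 34.5, 126 and 204 in smoke, a difference of -0.96 ± 0.41 (adjusted p = 0.0946). Of the other 6, Tekt4, Pifo, Tekt1, Cfap52, Mns1 and Cfap53 fell in female smoke, at -3.19, -2.98, -2.90, -2.66, -2.17 and -2.02. With the length-biased pair left out, Cfap52 (adjusted p = 0.0919) and Cfap53 (0.0952) did not pass.

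Among the 7 further proteins of ciliated cells 6 fell in female smoke, at a median of -2.62. Tppp3, a tubulin-binding protein, had the highest level per kilobase of transcript of the 42 in air of both sexes, a median of 6283 counts per kilobase in female and 1172 in male cells. Its counts were 3932, 6434 and 19958 in female air and 49.2, 1527 and 4977 in female smoke, and it fell by 2.62 ± 0.77 (limma adjusted p = 0.0109). Male inserts held 880 to 1545 counts of Tppp3 in air, median 1200, and 105 to 1321 in smoke, median 793, a difference of -0.90 ± 0.77 (adjusted p = 0.43). Sntn, a protein of the ciliary tip, stood at 363, 699 and 1500 in female air and at 0 reads, 122 and 444 in female smoke. It fell by 3.27 ± 0.96 (adjusted p = 0.0111), next to a male difference of -1.27 ± 0.96 (adjusted p = 0.37) between 127, 172 and 220 counts in air and 9.72, 97.7 and 166 in smoke. Lrriq1 was the 1 member not called in female smoke: it stood at 68.5, 502 and 705 in air, the lowest in insert 1, and at 1.20, 116 and 562 in smoke. Its difference of -2.10 ± 0.91 (adjusted p = 0.076) became -1.53 ± 0.54 and passed once the length-biased pair was left out (adjusted p = 0.0264). In male cells Lrriq1 stood at 56.2, 121 and 194 in air and at 15, 65.5 and 115 in smoke, a difference of -0.97 ± 0.91 (adjusted p = 0.477). The adenylate kinase Ak8, Meig1, the kinase Stk33 and Mlf1 fell in female smoke, at -3.11, -3.03, -2.52 and -2.44.

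**Figure D2:**
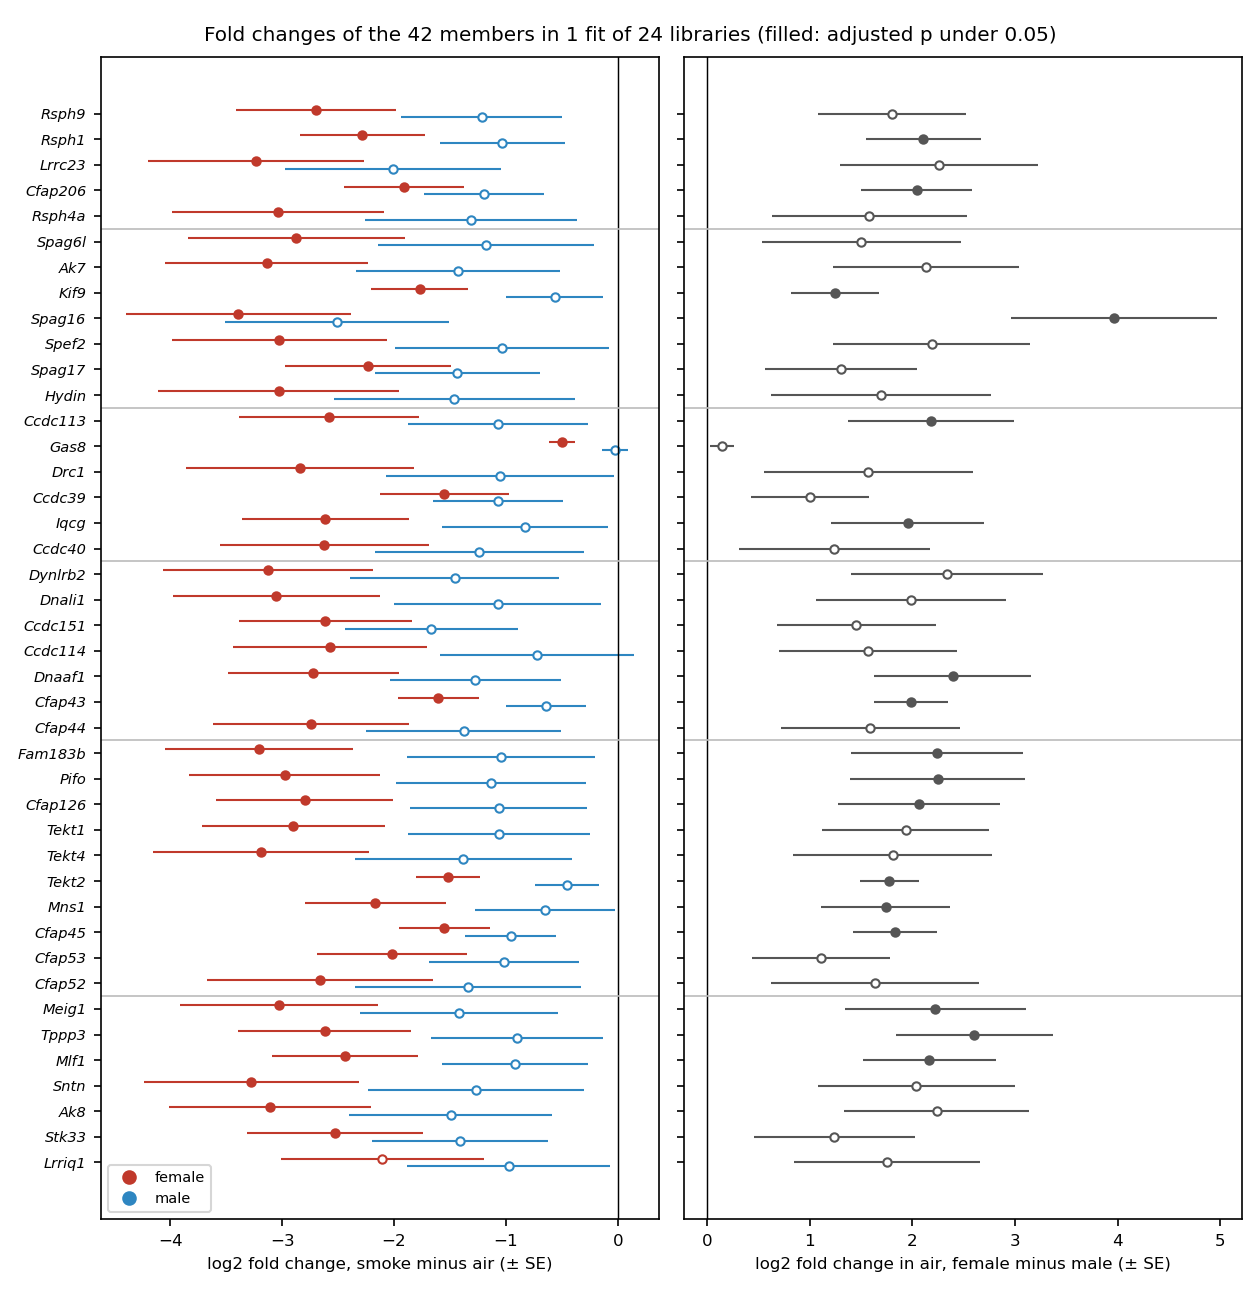
Points are log2 fold changes of the 42 genes from 1 limma fit of 24 libraries, with bars of 1 SE, for smoke minus air in each sex (left) and female minus male in air (right); filled points have an adjusted p under 0.05. Left, 41 female points and 0 male points are filled; right, all 42 points lie above 0 and 17 are filled.

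The members moved together from insert to insert. The mean of log2(normalised count + 1) over the 42 members was 9.42 ± 0.43 (SD, n = 6) in female air and 6.85 ± 2.41 in female smoke, against 7.57 ± 0.41 in male air and 6.42 ± 1.21 in male smoke. Female smoke inserts 1 to 6 stood at 6.75, 8.99, 8.73, 2.32, 6.90 and 7.42. Inserts 2 and 3 lay near or within the range of female air (8.75 to 9.95) and insert 4 lay far below every other library. Relative to the female air median, the median member reached 15.5%, 72.6%, 63.8%, 0.4%, 16.7% and 24.3% in female smoke inserts 1 to 6.

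In male smoke the 6 inserts stood at 4.07, 6.95, 6.84, 6.32, 7.51 and 6.80, where male air ran from 7.08 to 7.99. Insert 1 lay apart and insert 5 lay within the range of air. As a share of the male air median, the median member reached 6.8%, 67.3%, 55.5%, 41.8%, 94.1% and 56.3%. The order of inserts was shared by most members. Female smoke insert 4 was the lowest of its group in 41 of 42 members (37.9% of all genes tested), Tekt2 being the exception, and insert 2 the highest in 39 (20%). Male smoke insert 1 was the lowest in 40 (21.4%) and insert 5 the highest in 38 (15.2%). Within female air, insert 4 was the lowest in 33 members (15.3%) and insert 1 the highest in 24 (39.8%).

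**Figure D3:**
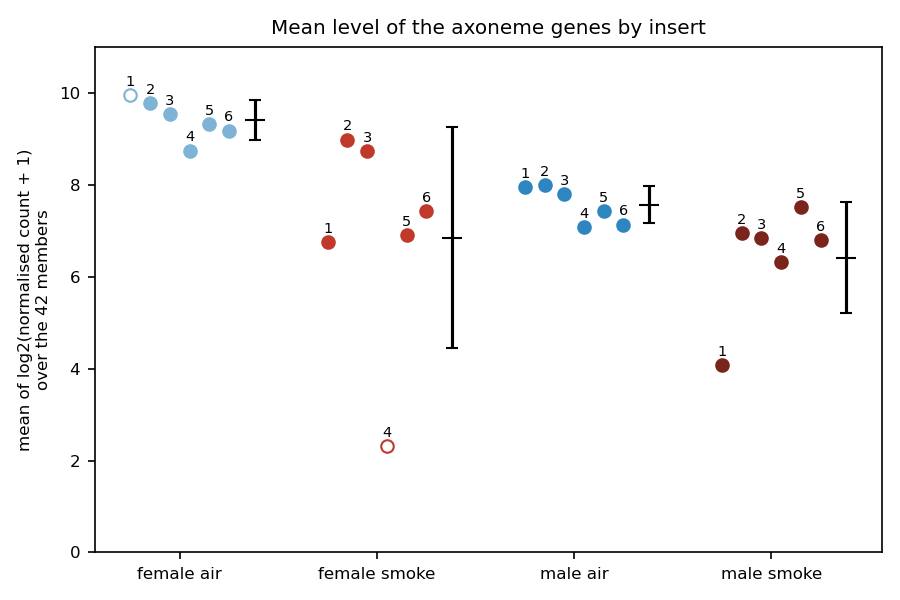
Each point is 1 insert, labelled with its number, at the mean of log2(normalised count + 1) over the 42 members; bars are the group mean and 1 SD (n = 6), and open points are the length-biased pair, female air insert 1 and female smoke insert 4. The female smoke inserts span 2.32 to 8.99 and the female air inserts 8.75 to 9.95.

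In the lowest smoke insert of each sex what was left differed between members. In female smoke insert 4, 12 members had 0 reads and 28 had at most 3 reads. For a member at 0 reads, a floor of 3 reads allows up to 0.25% (Hydin) to 2.56% (Stk33) of the female air median. The median over the 42 was 0.37% of the female air median. Gas8 kept 50.1% of it (95% exact Poisson interval 44.0 to 56.7, counting error only, 246 reads), Tekt2 31.9%, Cfap43 11.5% and Cfap45 11.2%, and no other member reached 10%. In male smoke insert 1 the median was 6.82% and 1 member, Spag16, had 0 reads. There Gas8 kept 88.2%, Tekt2 61.5%, Kif9 30.8% and Cfap43 23.2%, and 11 members kept at least 10%. So Gas8 and Tekt2 ranked highest in both inserts, as a description of 2 libraries. Female smoke insert 4 belongs to the length-biased pair, and its percentages are not corrected for transcript length.

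**Figure D4:**
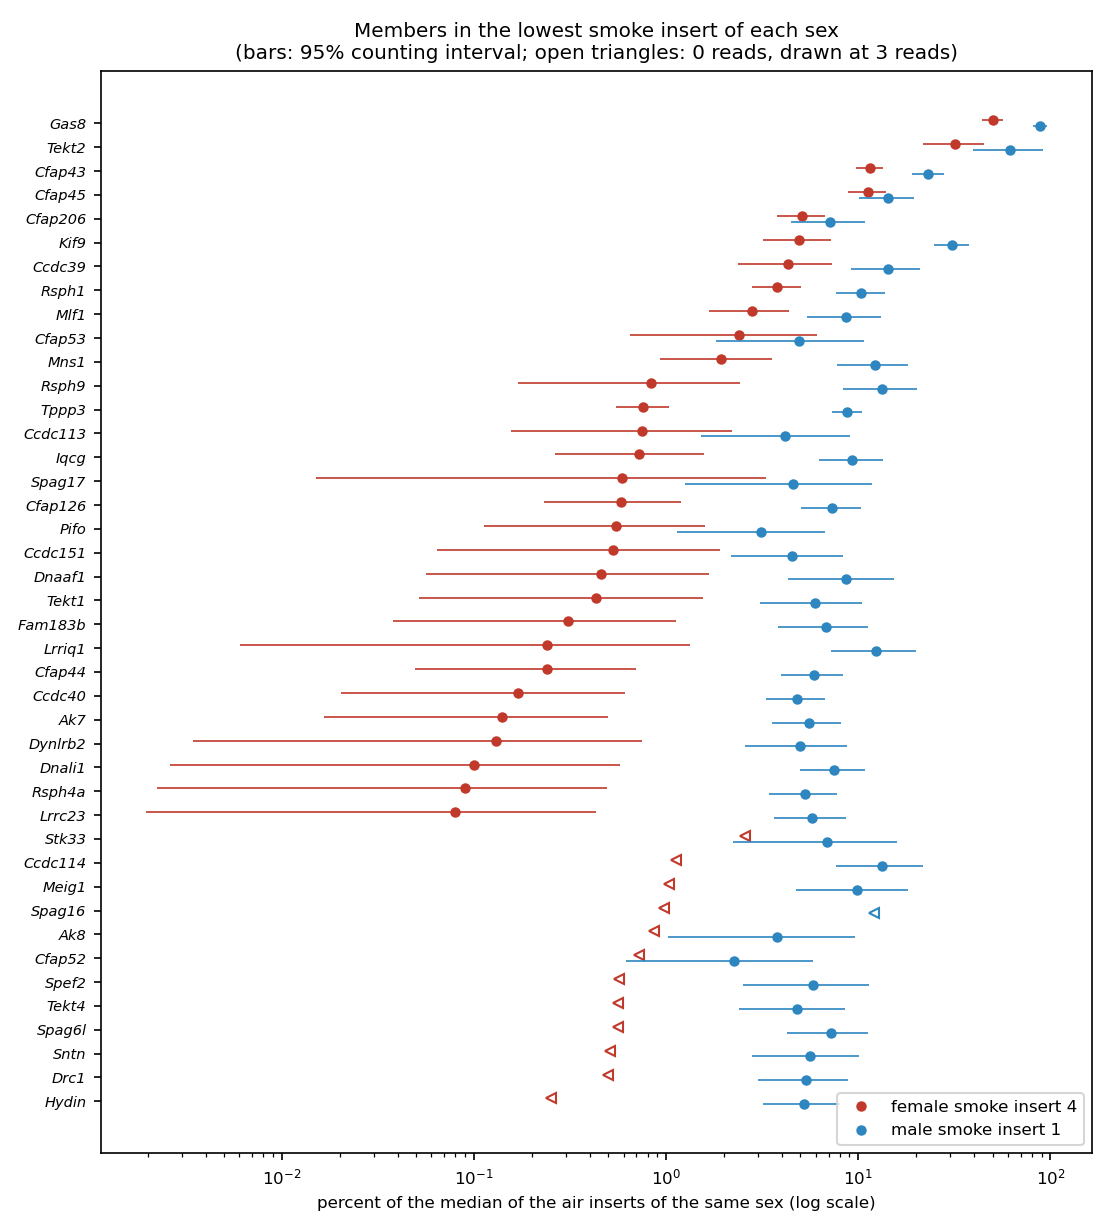
Each line is 1 gene; points give its level in female smoke insert 4 (red) and male smoke insert 1 (blue) as a percent of the median of the 6 air inserts of the same sex, on a log axis. Bars are 95% counting intervals and open triangles mark genes with 0 reads, drawn at what 3 reads allow; Gas8 and Tekt2 sit at the top in both inserts.

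In male smoke the role groups had medians from -1.43 for the central pair apparatus to -1.05 for the microtubule inner proteins, and the number of calls differed between fits. By limma 0 members passed in the fit of all 24 libraries. In that fit an unadjusted p under 0.05 was found in 5 of the 42 members and in 4714 of all 13549 genes tested. Its SEs for the members ran from 0.117 to 1.076, against 0.094 to 0.777 without the length-biased pair. With the 12 male libraries fitted alone 15 members fell (24.1% of all genes), at the same median of -1.10. When the length-biased pair was left out 19 fell (24.7%), and without female smoke insert 4 alone 10 did (15.7%). On the recovered whole reads of 23 libraries, which lack male smoke insert 5, edgeR called 1 (11.9%) and DESeq2 4 (15.1%). By limma, leaving out male smoke insert 5 alone gave a median of -1.36 and 0 calls. Without male smoke insert 1 the median became -0.61 and 0 passed. Inserts 1 to 3 of each group alone gave 6 calls (10.7%) at a median of -1.98.

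Whether female cells responded more than male cells was tested as the female minus the male smoke response. By limma 0 of the 42 members were called, where 0.34% of all genes were called lower and 0.694% higher. An unadjusted p under 0.05 was found in 2 of the 42 members and in 1786 of all 13549 genes tested. EdgeR and DESeq2, both without male smoke insert 5, also called 0, where they called 0.539% and 1.92% of all genes lower. All 42 estimates were negative, at a median of -1.51, with Fam183b the lowest at -2.16 ± 1.19 (adjusted p = 0.466) and Gas8 the nearest to 0 at -0.48 ± 0.17 (adjusted p = 0.182). Leaving out the length-biased pair, the median was -0.44, without female smoke insert 4 alone it was -0.53, and with inserts 1 to 3 alone it was 0.27. These tests did not show a larger fall of axoneme genes in female than in male cells.

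In air, female cells held more axoneme RNA than male cells. All 42 estimates were positive at a median of 1.88, and 17 members were higher in female air by limma, where 20% of all genes were. In 35 members every female air insert lay above every male air insert (16.6% of all genes tested). Spag16 differed most, by 3.96 ± 1.0 (SE, n = 6 per group, limma adjusted p = 0.00306), followed by Tppp3 at 2.60 ± 0.77 (adjusted p = 0.0097) and Dnaaf1 at 2.39 ± 0.76 (0.0159). Gas8 differed least, by 0.14 ± 0.12 (adjusted p = 0.365), and its groups overlapped. Tekt2 (1.78 ± 0.29, adjusted p = 3.15e-05) and Cfap43 (1.98 ± 0.36, 0.000119) had the smallest p-values of the 42. By role group, 6 of 10 microtubule inner proteins, 3 of 7 further ciliated cell proteins and 2 in each of the other groups were called. Scaling by the library total shifted the median of all genes by -0.134 in this comparison, to -0.115, and by -0.151 between the sexes in smoke. With that scaling 13 members were higher in female air, and of all genes 2083 were higher and 3387 lower, against 2713 and 2569 in the scaling used here. Between the sexes in smoke the same scaling made 1628 of all genes higher and 3047 lower, against 2297 and 2067.

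Counts of calls between the sexes in air differed between fits. Once the length-biased pair was left out, 39 members were higher (28.3% of all genes) at a median of 1.75, and all but 3 of the 42 then had groups that did not overlap (24.4% of all genes). EdgeR called 36 (24.3%) and DESeq2 39 (25.7%), and 38 were called without female smoke insert 4 alone (23.3%). With only the air groups fitted, 40 were higher by limma (3046 of all 13549 genes tested). Fits of all groups share 1 spread with the smoke inserts. In such fits the count fell to between 9 and 11 without female air insert 2 or 3 or without male air insert 1, 4, 5 or 6. There 18% to 18.7% of all genes were higher, so these counts lay near the share of all genes. Squamous marker RNA differed too between these air cultures: the summed count of 10 squamous genes, Krt13 the most abundant, ran from 138101 to 286118 in female and from 5948 to 12246 in male air, with 6 of 10 higher in female air. The 7 secretory genes ran the other way, from 145864 to 371571 in female and from 397501 to 683528 in male air. Their part in the axoneme difference was not tested.

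In smoke the sexes differed in few members. Spag16 (3.08 ± 1.0, limma adjusted p = 0.0208), Cfap45 (1.24 ± 0.41, 0.0224) and Cfap43 (1.02 ± 0.36, 0.0313) were higher in female smoke, where 17.0% of all genes were. Gas8 was lower, by -0.34 ± 0.12 (adjusted p = 0.0304), where 15.3% of all genes were. The median of the 42 was 0.32. Calls of higher members went to 0 without female smoke insert 2 or 3 or without male smoke insert 1. The call of Gas8 was lost without female smoke insert 4, 5 or 6 or male smoke insert 3. It was also lost by edgeR, which left out male smoke insert 5. When the length-biased pair was left out 25 members were higher (26.0%) and the median was 1.27, while with inserts 4 to 6 alone the median was -1.51 and with inserts 1 to 3 alone 2.15, so the direction between the sexes in smoke turned with the inserts used.

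In female air insert 1 most short members stood high and some long members low. Among the 21 members with transcripts of 515 to 2108 bases, 19 lay above all other female air inserts, at a median difference of 1.57 (log2) from the others. The 21 with transcripts of 2200 to 15783 bases had a median difference of -0.09, with 5 above and 7 below all other inserts. Dynlrb2, with a transcript of 515 bases, stood at 4433 in insert 1 against a median of 886 in inserts 2 to 6. Hydin, with 15783 bases, stood at 237 against a median of 1512. In female smoke insert 4 both sets were low, at medians of -5.12 and -6.10 from the other smoke inserts, and single members ran against that order: Sntn, with a short transcript, stood at -7.24 and Cfap43, with a long one, at -1.87.

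**Figure D5:**
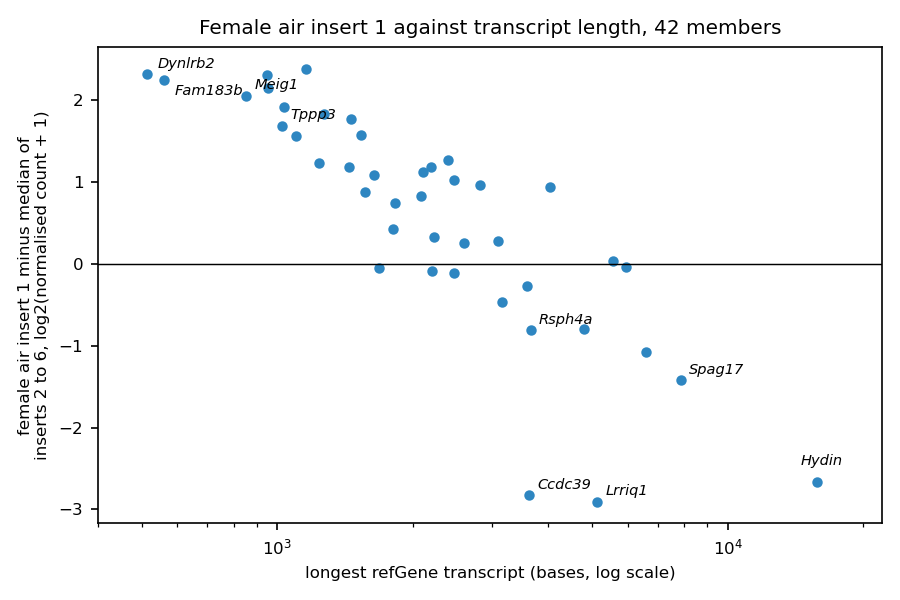
Each point is 1 of the 42 genes: the longest annotated transcript in bases on a log axis against the log2 difference of female air insert 1 from the median of female air inserts 2 to 6. Of the 21 genes with transcripts of 515 to 2108 bases most lie above 0, and Hydin, Lrriq1 and Ccdc39 lie lowest.

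Other genes of the cilium fell in female smoke as well, in lists chosen with earlier results of these data known. Of 18 axonemal dynein arm subunits, the motors themselves, 17 fell in female smoke at a median of -2.83 and 3 fell in male smoke at -1.33, with the outer arm heavy chain Dnah5 at -3.43 ± 1.06 (limma adjusted p = 0.0148) and -1.81 ± 1.06 (0.232). Of 44 other axoneme proteins 41 fell in female smoke at a median of -2.53, and 0 of 44 passed in male smoke at -1.17. Among 12 tested assembly and transport factors of the dynein arms 9 fell in female smoke at -1.70 and 1 in male smoke, Lrrc56 at -0.98 ± 0.33 (adjusted p = 0.0347). Intraflagellar transport and BBSome genes, which serve primary cilia as well, had a smaller median of -0.73 with 24 of 33 lower in female smoke, and -0.27 with 4 of 33 lower in male smoke. Over all genes tested the medians were -0.003 and -0.006, and 19.3% were lower in female and 12.2% in male smoke. In male smoke the counts of called genes in these 4 lists were thus near or below the share of all genes in the fit of all 24 libraries. With the length-biased pair left out, the male medians were the same and more genes passed. Then 15 of 18 dynein arm subunits, 24 of 44 other axoneme proteins, 5 of 12 assembly and transport factors and 16 of 33 transport and BBSome genes fell. Of all genes 24.7% fell there.

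Regulators of multiciliated fate are the genes upstream of the axoneme program, and 10 of 11 fell in female smoke and 7 of 11 in male smoke, at medians of -2.48 and -1.66. Foxj1, the master regulator of motile cilia, stood at 3723, 5460 and 7708 in female air and at 20.4, 1306 and 4602 in female smoke, and fell by 2.51 ± 0.85 (limma adjusted p = 0.0256). In male cells it stood at 886, 1343 and 1830 in air and at 103, 846 and 1166 in smoke, a difference of -1.13 ± 0.85 that did not pass (adjusted p = 0.368). Gmnc, which commits a cell to the multiciliated fate, stood at 97.9, 152 and 263 in male air and at 6.18, 17.9 and 33.6 in male smoke. These male groups did not overlap, and Gmnc fell there by 3.13 ± 0.64 (adjusted p = 0.00142). Mcidas, which acts next to Gmnc, fell by 2.53 ± 0.73 in female (adjusted p = 0.00963) and by 2.81 ± 0.73 in male smoke (0.00802).

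Squamous and secretory markers moved with smoke as well, and their part in the axoneme results was not tested. Squamous markers rose in 8 of 10 cases in female and 9 of 10 in male smoke, where 15.5% and 9.76% of all genes rose, and their summed count went from 138101 to 286118 in female air to 307438 to 424557 in female smoke, and from 5948 to 12246 to 22851 to 58284 in male cells. Secretory markers fell in 5 of 6 tested in female and 3 of 6 in male smoke, where 19.3% and 12.2% of all genes fell, with sums of 25903 to 140789 in female and 75519 to 263606 in male smoke. Basal markers moved in both directions, with 2 of 9 lower and 1 higher in female smoke and 3 lower and 2 higher in male smoke, and sums of 173872 to 277323 in female air, 253626 to 414940 in female smoke, 185453 to 230207 in male air and 126298 to 265097 in male smoke. Of 5 fibroblast markers 2 were tested, Dcn and Postn, and both fell in each sex, from sums of 287 to 1486 to 23 to 155 in female and of 153 to 411 to 24 to 87 in male cells. Leukocyte markers held 2 tested genes. Cd68 rose in both sexes, while Lyz2, which made up nearly all of the summed 32372 to 130613 counts in female air and 4159 to 39430 in female smoke, fell in female smoke (limma adjusted p = 0.00575) and did not pass in male smoke (0.345, sums of 30273 to 40494 in air and 5609 to 44183 in smoke). The T cell marker Cd3e had a median of 0 in both female groups. Female smoke insert 4 had the highest squamous and basal sums of its group and the lowest secretory sum, and male smoke insert 1 the highest squamous and the lowest secretory sum.

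The authors' deposited tables, each fitted on the 12 libraries of its comparison, listed 26 of the 42 members as lower in female smoke at a median of -1.34, once the sign is turned to smoke minus air (15.4% of the genes with an adjusted p there). The authors' deposited table for male cells listed 17 members as lower at a median of -0.68, where it listed 20.1% of its genes as lower. For the sexes in air the authors' deposited table listed 41 members as higher in female cells at a median of 1.92, where 20.7% of its genes were. These deposited fold changes come from another model than the differences of log2(normalised count + 1) used here. The sizes of the 2 sets of medians are therefore not directly comparable.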

How the data were processed

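RNA of 24 inserts was measured. The deposited table holds normalised counts, a signal that the authors had divided by size factors (DESeq2 is named in the submitters' processing notes, with FastQC 0.11.9, Trimmomatic 0.38.0, HTSeq and the builds GRCm38 and mm10). Per the labels, a NEBNext Ultra II kit was used. No aligner and no strandedness is given in the sources used here. The authors' comparison tables hold, per the file headers, log2 fold changes and their standard errors, p-values and adjusted p-values, and a test statistic, a score. Gene positions deposited by the authors are a unit of other kind, on mm10. The sign of those fold changes was turned here to smoke minus air and female minus male.

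In 24 of 24 columns all values were whole multiples of 1 step, within 0.001 reads. In 23 libraries these were taken as whole reads and passed to edgeR 4.0.16 and DESeq2 1.42.0 as alternatives. The step of 0.989 of male smoke insert 5 was too near 1 for that.

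Genes with a mean of at least 10 over 24 libraries were tested, 13549 of 25239. Values were log2(normalised count + 1), fitted with limma 3.58.1 in R 4.3.3 (eBayes with a trend, 1 term per group, 5 two-sided contrasts, Benjamini-Hochberg adjusted p under 0.05). The fit was tested on simulated data with the same spread in every group and no outlying inserts. It was not tested under the unequal spread seen here. The members and all gene lists were chosen with earlier results of these data known, and the full X-box was added last. Values by insert are given for 17 members, taken by rule: the most abundant of each role group, the 3 lowest and 3 highest fold changes in each sex, the 3 largest interactions, and members not called in either smoke comparison while most were, or called against the majority. Without molecular identifiers, intervals and floors cover counting error only. Other scalings, pseudocounts, filters, models and left-out libraries were tried as alternatives.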

Additional observations from a re-analysis of the deposited data

Results flagged for a closer look

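An insert was marked where it lay far from the other 5 of its group (Dixon's test on the log2 scale). Chance marks about 1 in 20 groups, and members move together, so these marks are not independent. The mean log2 level of the 42 members was marked in female smoke insert 4 (2.32) and in male smoke insert 1 (4.07). Over all 42 members, 27 were marked low in female smoke insert 4 and 27 in male smoke insert 1. Over all genes tested, these inserts were the lowest of their group in 37.9% and 21.4%. How many of all genes would be marked is not given here.

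In female smoke insert 4 the marked members with values by insert were Ak7 (2.40 normalised counts), Ccdc40 (2.40), Cfap126 (8.39), Tppp3 (49.2), Lrrc23 (1.20), Ccdc151 (2.40), Fam183b (2.40), Lrriq1 (1.20), and Sntn and Spef2 (0 each). In male smoke insert 1 they were Rsph1 (43.3), Ak7 (22.1), Ccdc40 (29.2), Cfap43 (95.4), Cfap126 (29.2), Tppp3 (105), Sntn (9.72), Cfap45 (34.5), Ccdc151 (8.83), Spef2 (7.07) and Fam183b (13.3). Female air insert 1 was marked as the highest of its group for Tekt2 (240) and Fam183b (3548) and as the lowest for Lrriq1 (68.5). Gas8 was marked high in male smoke insert 3 (671).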

How the results depend on the processing

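In female smoke the number of members called lower was 13 with only the groups compared fitted and 1 with inserts 1 to 3 alone. It ran from 36 to 42 when 1 library was left out (2350 to 3318 of all 13549 genes tested), with the median from -3.12 to -1.72. In male smoke it was 15 with only the groups compared and 19 without female air insert 1 and female smoke insert 4. With inserts 1 to 3 alone it was 6 (median -1.98). By edgeR it was 1 and by DESeq2 4, both without male smoke insert 5. When 1 library was left out it was 0 to 10 (1206 to 2419 of all genes), with the median from -1.36 to -0.61. For the interaction, inserts 1 to 3 alone gave a median of 0.275. Inserts 4 to 6 alone gave 1 member called lower (386 of all genes) and a median of -3.44. Leaving out 1 library gave medians from -2.0 to -0.53. Members higher in female than male air numbered 26 with quantile scaling and 26 with a pseudocount of 5 (2526 and 2837 of all genes). They numbered 40 with only the groups compared (3046 of all genes) and 39 without that pair. With inserts 1 to 3 and 4 to 6 alone they numbered 9 and 7 (11.1% and 17.6% of all genes). The latter is at the share of all genes. They numbered 36 by edgeR and 39 by DESeq2. With 1 library left out they numbered 9 to 38 (2433 to 3154 of all genes, median 1.75 to 2.04). Between the sexes in smoke 0 were lower with the length trend subtracted, with only the groups compared, with inserts 1 to 3 alone and by edgeR, and 0 to 1 with 1 library left out. There 0 were higher with only the groups compared, 25 without that pair and 0 with inserts 4 to 6 alone (median -1.51). With inserts 1 to 3 alone 13 were higher (13.7% of all genes, median 2.15). EdgeR called 8 higher (17.0%) and DESeq2 15 (19.8%), both without male smoke insert 5. With 1 library left out 0 to 16 were higher (2090 to 2990 of all genes, median -0.19 to 1.27). Fits of fewer samples have fewer degrees of freedom. Without that pair the male smoke differences kept their median of -1.10. Their SEs then ran from 0.094 to 0.777, against 0.117 to 1.076 with all 24 libraries. What else moved these counts was not tested.

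Of the male smoke differences, Tekt2 turned to 0.339 with inserts 4 to 6 alone, and Gas8, near 0 throughout, to 0.003 without male air insert 2, 0.006 without male smoke insert 1 and 0.002 without male smoke insert 6, within a range from -0.098 to 0.006. Over the 17 members with values by insert, 624 alternative values kept their side of the threshold in female smoke, 32 lost and 7 gained a call. In male smoke 633 kept it and 26 gained a call.

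The labels do not say whether the insert numbers pair the samples. Correlations of same-numbered inserts, as deviations from the group means, ran from -0.206 to 0.367 between female air and smoke. Between male air and smoke they ran from -0.242 to 0.124. They cannot exclude a pairing, as single inserts lie far from their group. With the insert number as a replicate block 42 members were lower in female smoke, 1 in male smoke and 22 higher in female air. Of all 13549 genes tested 2569, 1598 and 2729 were called in these directions. Depth limits what can be said of members with few reads, such as Spag16 in male cells.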
